A study of Mus musculus with 6 samples.

Results

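The genes described here are 49 members of the glycolytic pathway and of the cellular response to low oxygen, taken as the rows of the deposited expression table with exactly those symbols. All 49 were among the 23284 genes of the table. They were sorted by role into 3 subunits of the hypoxia-inducible factors (HIF), 4 genes of oxygen sensing, 17 glycolytic enzymes, 8 genes of glucose and lactate transport and of flux control, and 17 other genes known to be induced by hypoxia. RNA was measured by sequencing in 6 tumours raised as subcutaneous xenografts in athymic nude mice, which lack mature T cells, from STS26T, an established human cell line from a malignant peripheral nerve sheath tumour. Of these, 3 tumours (anti-ENG 1, 2 and 3) came from mice dosed with the endoglin antibodies TRC105, directed against the human protein, and M1043, directed against the mouse protein, and 3 (IgG control 1, 2 and 3) from mice given the matching IgG. Each arm received 10 mg/kg by the intraperitoneal route 2 times a week for 3 weeks. The question was what blocking endoglin, a TGF-beta co-receptor of endothelial and some tumour cells, does to these tumours.

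Cells split glucose in the cytosol to pyruvate through a chain of enzymes whose preparatory phase spends ATP and whose payoff phase returns ATP and NADH, and lactate dehydrogenase then turns pyruvate into lactate. HIF1A and EPAS1 encode oxygen-labile transcription factors. When oxygen is present, prolyl hydroxylases of the EGLN family mark them and the VHL protein directs their destruction, and when oxygen is short they accumulate and switch on genes of glucose uptake, glycolysis, pH control, angiogenesis and matrix assembly. Because HIF1A is controlled chiefly at the protein level, its RNA is a poor gauge of its activity.

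Values are FPKM, which divide a gene's fragments by its transcript length and by a measure of library size, so levels can be set side by side between genes. The deposited FPKM summed to between 446100 and 475146 in the anti-ENG tumours and between 410786 and 443148 in the IgG tumours. Total depth cannot be read from these values. The FPKM worth of a single fragment in very low genes gave the relative library size used in the scaling. That size was 1.46, 1.22 and 1.14 times that of IgG control 1 for anti-ENG 1, 2 and 3. For IgG control 2 and 3 it was 1.17 and 1.09 times. Over all genes, anti-ENG 1 and IgG control 1 were the tumours farthest apart (on principal component 1, with 44.6% of the variance), so results are given without them where that matters. The description codes carry number 21 for both anti-ENG 1 and 2 and number 5 for both IgG control 2 and 3, and whether tumours of 1 number grew in the same mouse is not stated. The groups may then hold fewer animals than tumours, and p-values measure only the spread between these samples. The Schwann cell markers SOX10 and S100B, which these tumours often lose, reached no more than 0.0724 and 0.0849 FPKM in the anti-ENG tumours and 0.188 and 0.104 FPKM in the IgG tumours, and PMP22 was the most abundant of 8 such markers, at 43.9 ± 1.54 FPKM in the anti-ENG tumours and 43.3 ± 5.48 FPKM in the IgG tumours (SD, n = 3 each).

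Glycolytic enzymes were among the most abundant transcripts of these tumours. GAPDH had rank 3 in the whole table by mean FPKM, ENO1 ranked 56 and TPI1 83, and PKM2, LDHA, PGK1, LDHB and ALDOA ranked between 111 and 157. The 17 enzymes together took 1.55 to 2.12% of all FPKM of a tumour. Levels of their minor forms were far lower: HK2, PFKM and ALDOC each had a mean under 20 FPKM over the 6 tumours. Among the other hypoxia targets NDRG1 was the most abundant, at rank 479, and ANKRD37 the least, at rank 9086.

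**Figure D1:**
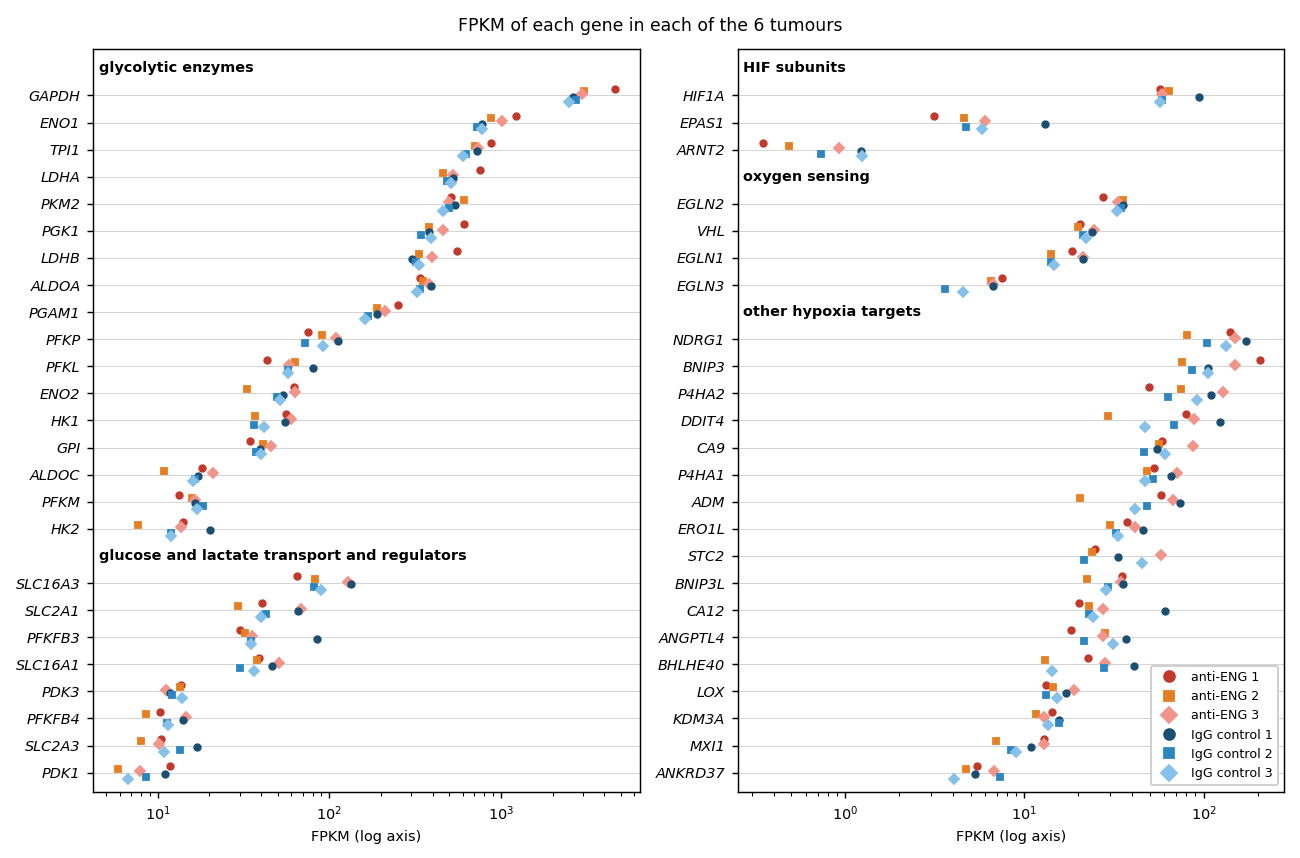
FPKM of the 49 genes in each tumour on a log axis, sorted by role and then by mean level, with anti-ENG tumours in red and orange and IgG control tumours in blue. GAPDH spans 2956 to 4617 FPKM in the anti-ENG tumours and 2509 to 2738 in the IgG tumours, while EPAS1 reaches 13.1 FPKM in IgG control 1 alone.

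No member differed between the arms at an adjusted p under 0.05 (limma with Benjamini-Hochberg adjustment over 12586 genes), and 0% of all genes tested did. The smallest adjusted p among the members was 0.529. Of the 49 members 48 were tested. ARNT2, a brain-enriched HIF partner, missed the minimum mean of 1 FPKM. At an unadjusted limma p under 0.05 there were 2 members, ENO1 with a higher estimate and SLC2A3 with a lower one, which is 4.17% of the members against 9.17% of all genes (5.56% higher and 3.61% lower). The 3 anti-ENG tumours lay apart from the 3 IgG tumours for 5 members, 10.4% of them, against 17.3% of all genes tested (10.6% with the anti-ENG tumours above and 6.75% with them below). GAPDH, ENO1 and LDHB lay above, PFKM and SLC2A3 below. Of the tested members 23 had an estimate above 0 and 25 one below 0, and their median log2 fold change was -0.020, against 0.0065 over all genes tested. Here and below a log2 fold change is anti-ENG minus IgG control on the log2(FPKM + 1) scale.

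**Figure D2:**
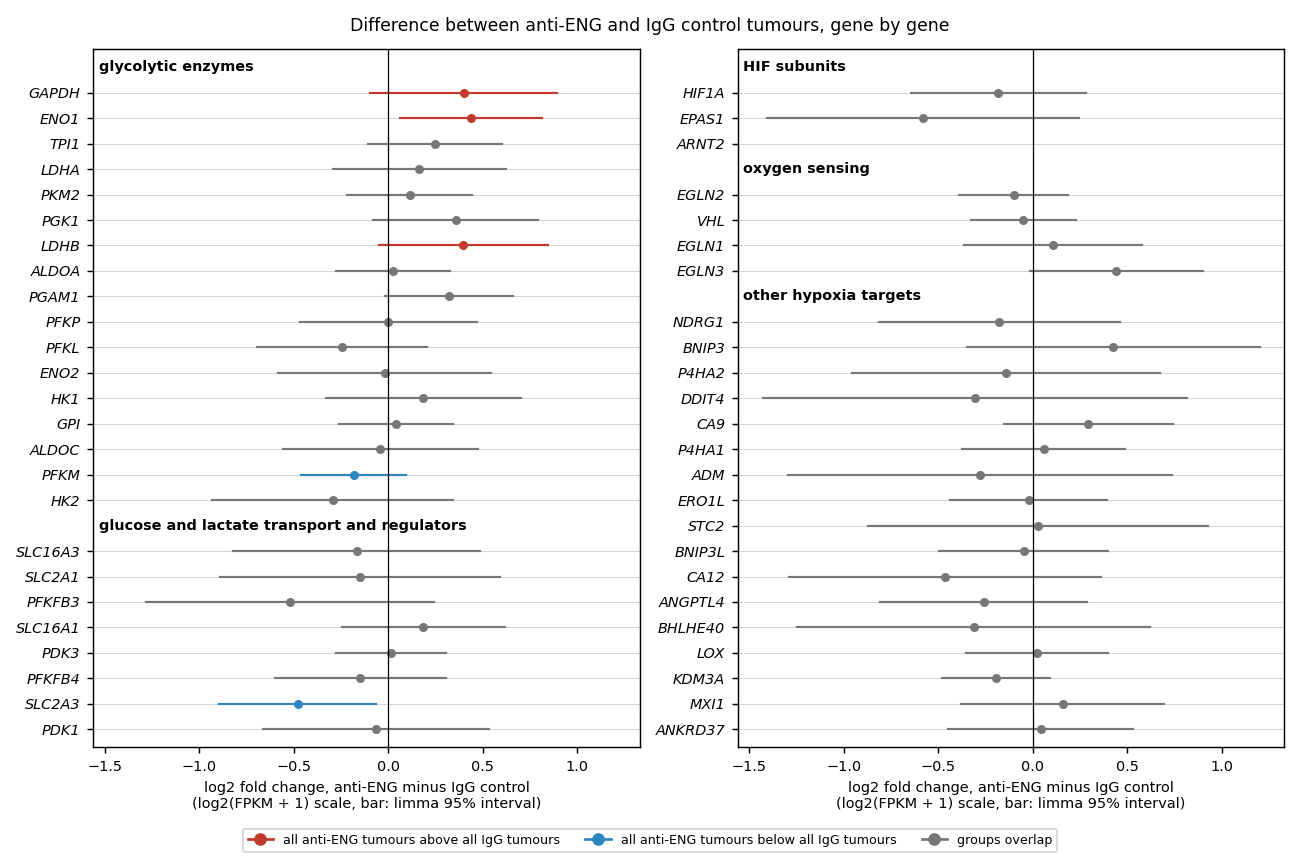
Log2 fold change of each tested gene, anti-ENG minus IgG control, with the 95% interval of limma, in the order of the plot of FPKM by tumour. Intervals cover 0 for all genes but ENO1 and SLC2A3, and ENO1 at 0.44 and EGLN3 at 0.44 have the highest estimates.

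Of the HIF subunits, HIF1A was the main form. HIF1A had 57.0, 63.9 and 58.9 FPKM in anti-ENG 1, 2 and 3, against 94.0, 58.5 and 57.2 FPKM in IgG control 1, 2 and 3. IgG control 1 stood above the other tumours, which lay close together. The log2 fold change of HIF1A was -0.18 (SE 0.20, limma adjusted p = 0.739). Leaving out IgG control 1 turned the estimate to 0.048. EPAS1, which encodes HIF-2 alpha, had 3.14, 4.61 and 6.00 FPKM in the anti-ENG tumours and 13.1, 4.69 and 5.78 FPKM in the IgG tumours. Again IgG control 1 was highest and anti-ENG 1 lowest, and the groups overlapped (log2 fold change -0.58, SE 0.35, limma adjusted p = 0.579). The EPAS1 value was -0.19 without IgG control 1 and 0.013 when anti-ENG 1 was left out too. ARNT2 had 0.346, 0.485 and 0.917 FPKM in the anti-ENG tumours and 1.23, 0.736 and 1.23 FPKM in the IgG tumours.

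Of the oxygen sensors, EGLN3 had the largest estimate and the others lay near 0. EGLN3, a prolyl hydroxylase that is itself induced by hypoxia, had 7.50, 6.48 and 6.70 FPKM in the anti-ENG tumours and 6.69, 3.58 and 4.55 FPKM in the IgG tumours. IgG control 1 reached the anti-ENG range and IgG control 2 and 3 lay below it. The log2 fold change of EGLN3 was 0.44 (SE 0.20, limma adjusted p = 0.529), with a 95% interval from -0.018 to 0.90, and it was 0.27 without IgG control 2. EGLN1, the main hydroxylase acting on HIF1A, had 18.5, 14.0 and 21.2 FPKM in the anti-ENG tumours and 21.1, 14.1 and 14.6 FPKM in the IgG tumours. EGLN2, a hydroxylase of the same family, had 27.5, 35.4 and 33.1 FPKM in the anti-ENG tumours and 35.3, 34.6 and 32.9 FPKM in the IgG tumours, where anti-ENG 1 alone was low. VHL, which recognises hydroxylated HIF, had 20.3, 20.0 and 24.5 FPKM in the anti-ENG tumours and 23.8, 21.2 and 22.0 FPKM in the IgG tumours. The arms overlapped for all 3 genes. The log2 fold changes of EGLN1, EGLN2 and VHL were 0.11, -0.10 and -0.05, each within the spread between tumours.

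Genes of glucose and lactate transport and of flux control had 6 of 8 estimates below 0, where 48.8% of all genes did, with a median log2 fold change of -0.15. The count below 0 was 4 without IgG control 1, 4 without anti-ENG 2 and 4 to 7 over all omissions of a single tumour. SLC2A1, the widespread glucose transporter GLUT1, had 40.6, 29.4 and 68.4 FPKM in the anti-ENG tumours and 66.0, 42.8 and 39.8 FPKM in the IgG tumours. Anti-ENG 3 and IgG control 1 were high and anti-ENG 2 was lowest, so the spread ran within the arms (log2 fold change -0.15, SE 0.32, limma adjusted p = 0.867). That estimate was 0.072 without IgG control 1, 0.12 without anti-ENG 2, and 0.12 with IgG control 1 and anti-ENG 1 both left out. SLC2A3, the high-affinity transporter GLUT3, had 10.4, 7.97 and 10.1 FPKM in the anti-ENG tumours and 16.9, 13.5 and 10.8 FPKM in the IgG tumours. All anti-ENG tumours lay below all IgG tumours, with anti-ENG 1 and IgG control 3 close together (log2 fold change -0.48, SE 0.18, limma adjusted p = 0.529, exact permutation p = 0.1, the smallest that 3 against 3 can give in a two-sided test).

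SLC16A3, the lactate exporter MCT4, had 65.2, 82.9 and 128 FPKM in the anti-ENG tumours and 134, 81.9 and 89.6 FPKM in the IgG tumours. Here too anti-ENG 3 and IgG control 1 were the high tumours. Its log2 fold change was -0.17 (SE 0.28), but 0.047 without IgG control 1, 0.050 without anti-ENG 1 and 0.26 without both. SLC16A1, the lactate and pyruvate carrier MCT1, had 38.9, 37.9 and 50.9 FPKM in the anti-ENG tumours and 46.0, 30.3 and 36.3 FPKM in the IgG tumours. The arms overlapped, and the log2 fold change of SLC16A1, 0.18 (SE 0.18), was 0.34 without IgG control 1, 0.044 without IgG control 2 and 0.053 without anti-ENG 3. PFKFB3, which makes the activator of phosphofructokinase, had 30.3, 32.2 and 35.6 FPKM in the anti-ENG tumours and 85.2, 35.1 and 34.9 FPKM in the IgG tumours. IgG control 1 alone stood apart, and the log2 fold change, -0.52 (SE 0.33, limma adjusted p = 0.587), was -0.098 without it. PFKFB4, of the same family, had 10.4, 8.58 and 14.7 FPKM in the anti-ENG tumours and 14.1, 11.3 and 11.5 FPKM in the IgG tumours, with both extremes in the anti-ENG arm. PDK1, a kinase that holds pyruvate back from mitochondria, had 11.8, 5.87 and 7.86 FPKM in the anti-ENG tumours and 11.1, 8.59 and 6.71 FPKM in the IgG tumours, with the lowest and the highest value in the anti-ENG arm. Its log2 fold change, -0.065 (SE 0.26), turned to 0.098 when IgG control 1 was left out and to 0.15 without anti-ENG 2. PDK3, of the same kinase family, averaged 12.8 ± 1.43 FPKM in the anti-ENG tumours and 12.6 ± 1.06 FPKM in the IgG tumours (SD, n = 3 each).

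Among the glycolytic enzymes 12 of 17 had an estimate above 0, with a median log2 fold change of 0.11. Of all genes tested, 51.2% had an estimate above 0. The median depended on the scaling: it was -0.0086 with the sum of FPKM equalised, -0.042 with quantile normalization and -0.060 with cyclic loess normalization, where 8, 7 and 6 enzymes had an estimate above 0. Without anti-ENG 2 the median was 0.28, and without IgG control 2, IgG control 3 or anti-ENG 3 it was 0.060, 0.062 and 0.056. Of these 17 genes 11 belonged to the 1259 most abundant genes, whose own median was 0.16 and of which 72% had an estimate above 0. The 2 phases of glycolysis, a textbook division applied here after the values had been seen, gave different medians, 0.34 over 6 payoff-phase enzymes and 0.00068 over 9 preparatory-phase enzymes. Of the 6 payoff-phase enzymes 5 were among the 1259 most abundant genes, and 2 of them, GAPDH and ENO1, among the 100 most abundant. Those 100 genes had a median of 0.32, with 87% of estimates above 0 and 37% lying apart with the anti-ENG tumours above. In the preparatory phase 5 of 9 estimates were above 0, a count that was 3 with upper quartile scaling, 2 with the sum equalised, 2 with quantile and 1 with cyclic loess normalization, and 2 without anti-ENG 3.

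In the preparatory phase the hexokinases trap glucose as its phosphate. HK1, the widespread form, had 55.7, 36.8 and 59.7 FPKM in the anti-ENG tumours and 54.8, 36.4 and 41.4 FPKM in the IgG tumours, with 1 low tumour in the anti-ENG arm and 1 high tumour in the IgG arm. HK2, the hypoxia-inducible form, had 14.1, 7.71 and 13.6 FPKM in the anti-ENG tumours and 20.1, 11.9 and 12.0 FPKM in the IgG tumours, again with overlap. GPI, the phosphoglucose isomerase, averaged 40.4 ± 5.72 FPKM in the anti-ENG tumours and 39.0 ± 1.53 FPKM in the IgG tumours (SD, n = 3 each). Phosphofructokinase, the committed step, was encoded mainly by PFKP, with 91.7 ± 17.3 FPKM in the anti-ENG tumours and 92.0 ± 19.6 FPKM in the IgG tumours (SD, n = 3 each), and PFKL, with 54.9 ± 10.3 FPKM in the anti-ENG tumours and 65.2 ± 13.3 FPKM in the IgG tumours (SD, n = 3 each). The muscle form PFKM had 13.3, 15.9 and 16.4 FPKM in the anti-ENG tumours and 16.5, 18.5 and 17.0 FPKM in the IgG tumours, so the arms lay just apart, with anti-ENG 3 and IgG control 1 nearly level. The aldolase ALDOA, which splits the sugar, averaged 357 ± 21.5 FPKM in the anti-ENG tumours and 351 ± 34.9 FPKM in the IgG tumours (SD, n = 3 each), and its minor relative ALDOC 16.7 ± 5.26 FPKM in the anti-ENG tumours and 16.6 ± 0.583 FPKM in the IgG tumours (SD, n = 3 each). TPI1, which interconverts the triose phosphates, had 877, 708 and 733 FPKM in the anti-ENG tumours and 729.8, 623 and 598 FPKM in the IgG tumours. Of the anti-ENG tumours, anti-ENG 2 alone lay below the highest IgG tumour.

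In the payoff phase 5 of 6 enzymes had an estimate above 0. GAPDH, the dehydrogenase that generates NADH, had 4617, 3032 and 2956 FPKM in the anti-ENG tumours and 2629.7, 2738 and 2509 FPKM in the IgG tumours. All anti-ENG tumours lay above all IgG tumours, and anti-ENG 1 stood far above the other two (log2 fold change 0.40, SE 0.21, limma adjusted p = 0.548). PGK1, the first ATP-yielding step and a classic HIF1A target, had 611, 383 and 457 FPKM in the anti-ENG tumours and 378, 344 and 391 FPKM in the IgG tumours. Here anti-ENG 2 lay inside the IgG range (log2 fold change 0.36, SE 0.19, limma adjusted p = 0.547). PGAM1, a mutase, had 253, 189.9 and 211 FPKM in the anti-ENG tumours and 190.4, 167 and 162 FPKM in the IgG tumours, and anti-ENG 2 and IgG control 1 were nearly equal (log2 fold change 0.32, SE 0.14, limma adjusted p = 0.529).

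ENO1, the ubiquitous enolase, had 1227, 880.5 and 1010.4 FPKM in the anti-ENG tumours and 777, 725 and 778 FPKM in the IgG tumours. The arms lay apart by more than the range of the IgG tumours (log2 fold change 0.44, SE 0.16, 95% interval 0.062 to 0.81, limma adjusted p = 0.529). Mean ENO1 was 1.37-fold higher on the FPKM scale. The estimate depended on the scaling: it was 0.32 with the sum of FPKM equalised, 0.12 with quantile and 0.15 with cyclic loess normalization. The unadjusted limma p of ENO1 was above 0.05 in each of these settings. It was also above 0.05 without the filter on low values (0.080) and with the replicate number as a block (0.063). ENO2, the neuronal enolase and also a hypoxia target, had 62.4, 33.2 and 63.5 FPKM in the anti-ENG tumours and 54.0, 49.2 and 51.6 FPKM in the IgG tumours, with the IgG tumours inside the anti-ENG range. Pyruvate kinase was listed as PKM2, an older symbol of its gene, so the splice forms were not separated, and averaged 539.9 ± 61.5 FPKM in the anti-ENG tumours and 498 ± 39.3 FPKM in the IgG tumours (SD, n = 3 each).

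Both lactate dehydrogenase genes had estimates above 0. LDHA, the hypoxia-inducible subunit, had 755, 457 and 529 FPKM in the anti-ENG tumours and 527, 483 and 509 FPKM in the IgG tumours. Only anti-ENG 1 stood well above the rest. The estimate for LDHA, 0.17 (SE 0.20, limma adjusted p = 0.764), was -0.041 without that tumour, -0.049 with quantile and -0.092 with cyclic loess normalization. LDHB, the subunit typical of oxidative tissue, had 551, 335 and 398 FPKM in the anti-ENG tumours and 304, 319 and 332 FPKM in the IgG tumours. The arms lay apart for LDHB, by a narrow margin between anti-ENG 2 and IgG control 3 (log2 fold change 0.40, SE 0.19, limma adjusted p = 0.534).

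Much of the higher level rested on anti-ENG 1. Without it the median log2 fold change of the payoff phase was 0.18, and the log2 fold changes of GAPDH, PGK1, PGAM1, ENO1 and LDHB were 0.19, 0.17, 0.21, 0.31 and 0.20. Quantile normalization gave these 5 genes 0.22, 0.19, 0.17, 0.12 and 0.24, and cyclic loess normalization 0.030, 0.11, 0.13, 0.15 and 0.16. The payoff-phase median was 0.14 with quantile and 0.072 with cyclic loess normalization. Summed over the 17 enzymes, FPKM came to 10057, 7246 and 7561 in the anti-ENG tumours, against 6859, 6533 and 6392 in the IgG tumours. These sums did not overlap. Total FPKM did not overlap either, at 446100 to 475146 in the anti-ENG tumours and 410786 to 443148 in the IgG tumours. GAPDH supplied a large part of the sums over the 17 enzymes. Without GAPDH the sums were 5439.8, 4214 and 4605 in the anti-ENG tumours and 4229.8, 3795 and 3882 in the IgG tumours, and anti-ENG 2 lay just below IgG control 1. These abundant genes have many near-identical processed pseudogenes, and transcripts of the mouse host resemble the human ones, and how reads shared between such sources were assigned was not recorded.

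**Figure D3:**
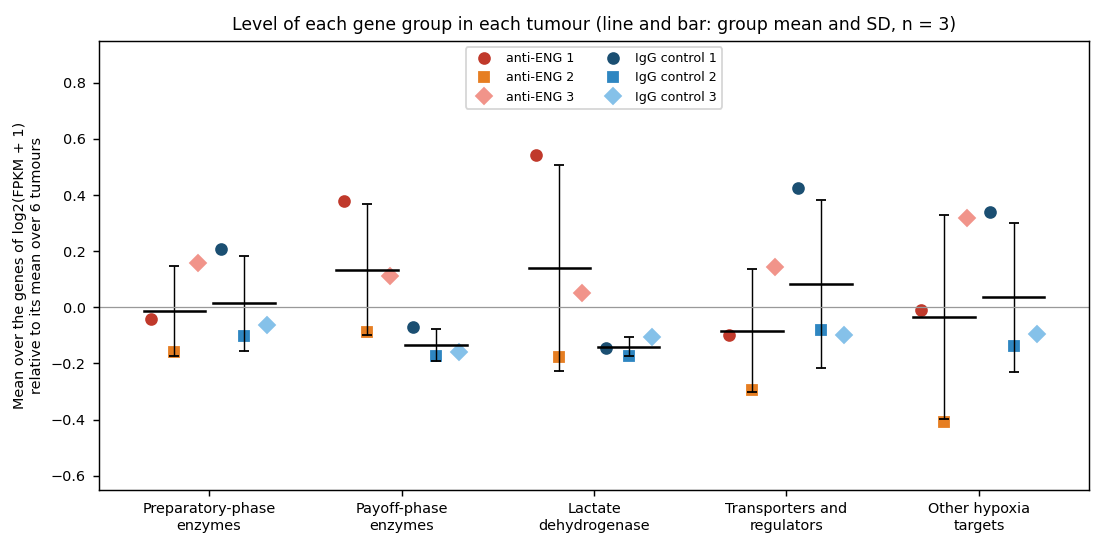
Mean over the genes of a group of log2(FPKM + 1), each gene taken relative to its own mean over the 6 tumours, with anti-ENG tumours on the left and IgG control tumours on the right of each pair, for 9 preparatory-phase enzymes, 6 payoff-phase enzymes, 2 lactate dehydrogenases, 8 genes of transport and regulation and 17 other hypoxia targets. Payoff-phase enzymes and lactate dehydrogenase peak in anti-ENG 1 (0.38 and 0.54), whereas other hypoxia targets peak in anti-ENG 3 (0.32) and IgG control 1 (0.34) and are lowest in anti-ENG 2 (-0.41).

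The share of an isozyme does not change when a library is multiplied by a scale factor, and 9 shares were compared with an exact two-sided permutation test over the 6 tumours. A share can change where differences between the arms vary with abundance. The median log2 fold change was 0.32 over the 100 most abundant genes tested and 0.16 over the 1259 most abundant. It was -0.075 over the 1259 least abundant. The shares were not recomputed with quantile or cyclic loess normalization, and the part of abundance in them was not tested. Shares of other gene pairs were not computed as a background. HK2 made up 20.2, 17.3 and 18.6% of hexokinase FPKM (HK1 and HK2) in the anti-ENG tumours, against 26.8, 24.7 and 22.5% in the IgG tumours. ENO2 made up 4.84, 3.64 and 5.91% of enolase FPKM in the anti-ENG tumours and 6.50, 6.36 and 6.22% in the IgG tumours. LDHA made up 57.8, 57.7 and 57.1% of lactate dehydrogenase FPKM in the anti-ENG tumours and 63.4, 60.3 and 60.5% in the IgG tumours. In all 3 of these shares every anti-ENG tumour lay below every IgG tumour, by 5.98, 1.56 and 3.86 percentage points in the means. Each exact permutation p was 0.1, the smallest possible, and each was 0.3 after Benjamini-Hochberg adjustment over the 9 shares, so none passed.

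The LDHA share averaged 57.5 ± 0.388% in the anti-ENG tumours and 61.4 ± 1.77% in the IgG tumours (SD, n = 3 each), and the anti-ENG tumours were nearly equal. Anti-ENG 2, where LDHA was at its lowest, had nearly the same share as anti-ENG 1, where it was at its highest. The ENO2 difference was -0.985 points without anti-ENG 2. The other shares overlapped between the arms. Of phosphofructokinase FPKM, PFKP made up 56.6 ± 2.95% in the anti-ENG tumours and 52.5 ± 3.30% in the IgG tumours (SD, n = 3 each). Of lactate carrier FPKM, SLC16A3 made up 67.6 ± 4.55% in the anti-ENG tumours and 72.9 ± 1.65% in the IgG tumours (SD, n = 3 each). Of the summed FPKM of SLC2A1 and SLC2A3, SLC2A3 made up 18.2 ± 4.63% in the anti-ENG tumours and 21.9 ± 1.87% in the IgG tumours (SD, n = 3 each), with anti-ENG 3 lowest at 12.9%. The EPAS1 share of HIF1A and EPAS1 was 7.06 ± 2.03% in the anti-ENG tumours and 9.60 ± 2.43% in the IgG tumours (SD, n = 3 each), and the shares of PFKM and ALDOC differed by -0.73 and -0.095 percentage points between the means.

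**Figure D4:**
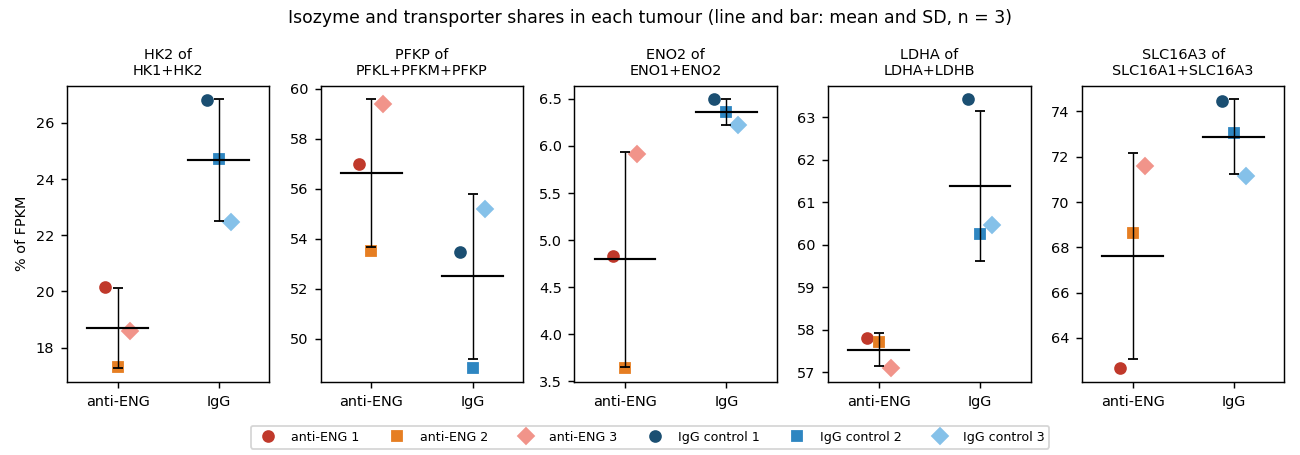
Share of 1 form in the summed FPKM of its enzyme or carrier, in percent, in each tumour, anti-ENG left and IgG control right, with axes that do not start at 0. The LDHA share lies between 57.1 and 57.8% in the anti-ENG tumours and between 60.3 and 63.4% in the IgG tumours.

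The other hypoxia targets showed no shared direction. Of 17 genes, 7 had an estimate above 0 and 10 one below 0, the median log2 fold change was -0.049, and the arms lay apart for 0 of 17, where 17.3% of all genes did. The count above 0 changed with single tumours. It was 13 without IgG control 1, 12 without anti-ENG 2, 3 without anti-ENG 3, 11 when IgG control 1 and anti-ENG 1 were left out together, and 3 with the sum of FPKM equalised. The median was 0.047, 0.14, -0.20 and 0.096 under those omissions in the same order, and -0.17 with the sum equalised. Many of these genes had the same tumours at their extremes. IgG control 1 was the highest tumour for 8 of 17 and anti-ENG 3 for 6, while anti-ENG 2 was the lowest for 9. Over all genes tested IgG control 1 was highest for 21.4%, anti-ENG 3 highest for 12.1% and anti-ENG 2 lowest for 13.9%.

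Among genes of pH control, CA9, a cell surface carbonic anhydrase used as a marker of hypoxia, had 58.7, 56.2 and 87.0 FPKM in the anti-ENG tumours and 54.7, 46.4 and 60.7 FPKM in the IgG tumours. Anti-ENG 3 was highest and the others overlapped (log2 fold change 0.29, SE 0.19, limma adjusted p = 0.595), and without that tumour the estimate was 0.097. CA12, its relative, had 20.0, 22.9 and 27.4 FPKM in the anti-ENG tumours and 61.3, 23.0 and 24.2 FPKM in the IgG tumours. IgG control 1 stood far above the rest for CA12. Its estimate, -0.47 (SE 0.35, limma adjusted p = 0.64), was -0.021 without that tumour and 0.082 when anti-ENG 1 was left out too.

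The widest ranges between tumours among the other hypoxia targets were those of DDIT4, ADM and BHLHE40. DDIT4, an inhibitor of mTORC1, had 79.6, 29.2 and 88.7 FPKM in the anti-ENG tumours and 123, 68.3 and 47.1 FPKM in the IgG tumours, a 4.23-fold range. ADM, the vasodilator adrenomedullin, had 58.0, 20.5 and 67.3 FPKM in the anti-ENG tumours and 73.8, 48.1 and 41.3 FPKM in the IgG tumours, a 3.59-fold range. Both genes were lowest in anti-ENG 2 and highest in IgG control 1. BHLHE40, a repressor of transcription, had 22.8, 13.0 and 28.1 FPKM in the anti-ENG tumours and 41.1, 27.8 and 14.3 FPKM in the IgG tumours, with the same extremes. NDRG1, a stress-response gene, had 139, 80.3 and 149 FPKM in the anti-ENG tumours and 172, 105 and 134 FPKM in the IgG tumours, again with the same extremes (log2 fold change -0.18, SE 0.27), and MXI1, an antagonist of MYC, averaged 10.9 ± 3.43 FPKM in the anti-ENG tumours and 9.41 ± 1.25 FPKM in the IgG tumours (SD, n = 3 each).

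The mitophagy receptor BNIP3 had another highest tumour, with 205, 76.0 and 149 FPKM in the anti-ENG tumours and 106, 85.7 and 105 FPKM in the IgG tumours. Anti-ENG 1 was its highest tumour, as for 4 of 6 payoff-phase enzymes and for 30.5% of all genes tested. Anti-ENG 2 was its lowest (log2 fold change 0.43, SE 0.33, limma adjusted p = 0.648). The value of BNIP3 was 0.11 without anti-ENG 1 and 0.82 without anti-ENG 2. Its relative BNIP3L averaged 30.5 ± 7.20 FPKM in the anti-ENG tumours and 31.2 ± 3.86 FPKM in the IgG tumours (SD, n = 3 each). Among genes of collagen maturation, the prolyl hydroxylase P4HA2 had 49.8, 74.6 and 129 FPKM in the anti-ENG tumours and 111, 63.7 and 92.3 FPKM in the IgG tumours, with both extremes in the anti-ENG arm. P4HA1 averaged 57.5 ± 11.8 FPKM in the anti-ENG tumours and 55.0 ± 9.67 FPKM in the IgG tumours (SD, n = 3 each), and LOX, which crosslinks collagen, 15.5 ± 2.94 FPKM in the anti-ENG tumours and 15.2 ± 2.02 FPKM in the IgG tumours (SD, n = 3 each). The secreted factor STC2 had 24.7, 23.8 and 57.9 FPKM in the anti-ENG tumours and 33.3, 21.4 and 45.3 FPKM in the IgG tumours, high in both tumours numbered 3. ANGPTL4, a lipase inhibitor, averaged 24.6 ± 5.58 FPKM in the anti-ENG tumours and 29.8 ± 7.64 FPKM in the IgG tumours (SD, n = 3 each), and ERO1L, an oxidase of protein folding, 36.4 ± 5.79 FPKM in the anti-ENG tumours and 37.1 ± 7.54 FPKM in the IgG tumours (SD, n = 3 each). The histone demethylase KDM3A had 14.3, 11.6 and 12.9 FPKM in the anti-ENG tumours and 15.6, 15.7 and 13.6 FPKM in the IgG tumours, with a log2 fold change of -0.19. ANKRD37 averaged 5.66 ± 1.03 FPKM in the anti-ENG tumours and 5.56 ± 1.65 FPKM in the IgG tumours (SD, n = 3 each).

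**Figure D5:**
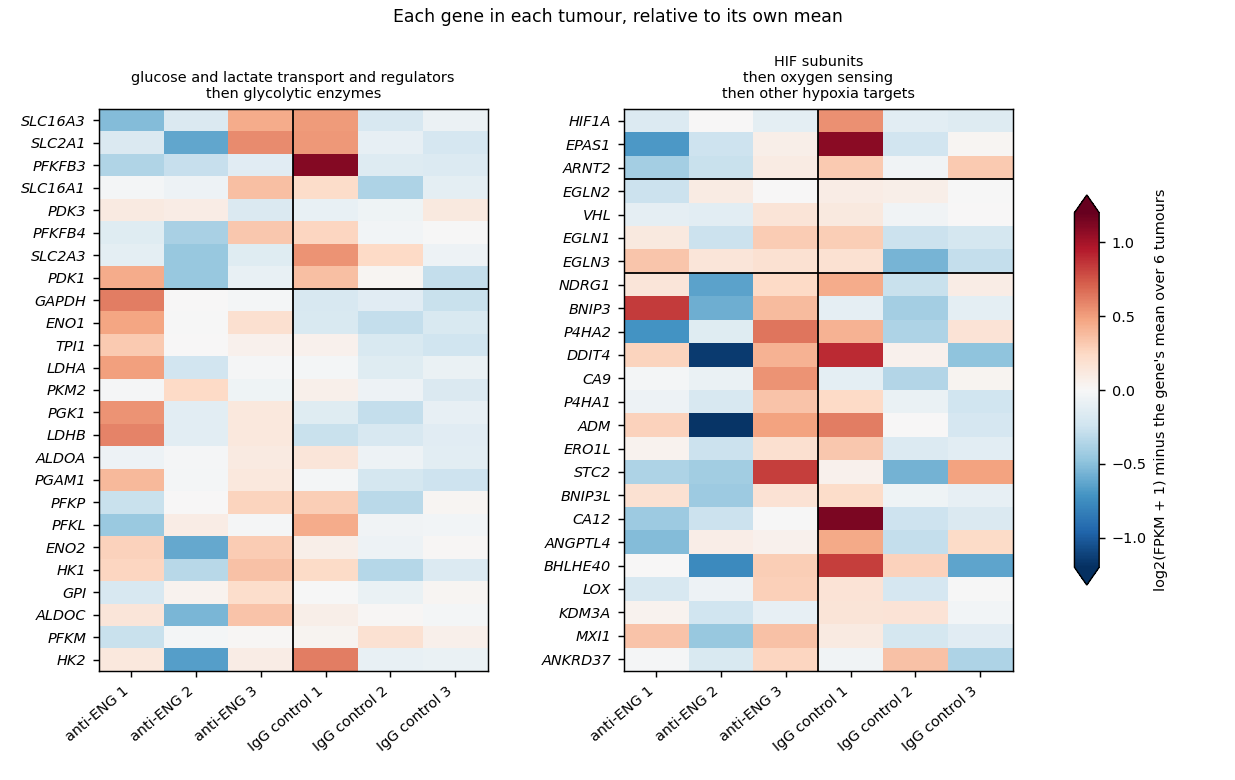
Level of each gene in each tumour as log2(FPKM + 1) minus the gene's mean over the 6 tumours, with the anti-ENG tumours left of the black line. PFKFB3, EPAS1 and CA12 are high in IgG control 1, ADM and DDIT4 are low in anti-ENG 2, and GAPDH, PGK1, ENO1, LDHA, LDHB and BNIP3 are high in anti-ENG 1.

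Set against each other, glycolytic enzymes and other hypoxia targets both stood highest in anti-ENG 1, anti-ENG 3 and IgG control 1, but in a different order. On the scale of mean log2(FPKM + 1) relative to the mean over 6 tumours, the glycolytic enzymes stood at 0.17, -0.14 and 0.13 in anti-ENG 1, 2 and 3, against 0.069, -0.14 and -0.10 in IgG control 1, 2 and 3. The other hypoxia targets stood at -0.011, -0.41 and 0.32 in the anti-ENG tumours, against 0.34, -0.14 and -0.096 in the IgG tumours. Both groups were low in anti-ENG 2, and anti-ENG 1 was highest for the enzymes but middling for the targets. The enzymes minus the targets came to 0.19, 0.27 and -0.19 in the anti-ENG tumours and to -0.27, 0.0020 and -0.0053 in the IgG tumours. Anti-ENG 3 and IgG control 1 thus sat together on the side of the targets, so the arms overlapped. The medians of the log2 fold changes differed by 0.16 between the lists, and by 0.047 with quantile and 0.054 with cyclic loess normalization. The preparatory-phase enzymes, at -0.043, -0.16 and 0.16 in the anti-ENG tumours and 0.21, -0.10 and -0.062 in the IgG tumours, ranked the tumours as the hypoxia targets did at the top, with IgG control 1 and anti-ENG 3 highest, and at the bottom, with anti-ENG 2 lowest. So did 36 further hypoxia-induced genes that are in neither list, which stood at -0.057, -0.22 and 0.18 in the anti-ENG tumours and at 0.24, -0.099 and -0.051 in the IgG tumours.

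The remaining genes of these pathways gave 0 calls in any list (limma adjusted p under 0.05). Of 10 other HIF pathway genes, 9 were tested, with 5 estimates above 0 and 4 below, a median of 0.022, 1 unadjusted limma p under 0.05 (11.1% of those tested, against 9.17% of all genes) and 3 genes lying apart (33.3%, against 17.3%). TCEB1, the elongin C of the VHL ubiquitin ligase, had 61.5, 46.7 and 52.1 FPKM in the anti-ENG tumours and 36.8, 36.3 and 39.1 FPKM in the IgG tumours, so the arms lay apart (log2 fold change 0.50, SE 0.13, limma adjusted p = 0.529). RBX1, the ring-finger subunit of the same ligase, lay apart as well, with 67.2 ± 8.65 FPKM in the anti-ENG tumours and 55.5 ± 1.37 FPKM in the IgG tumours (SD, n = 3 each). The HIF coactivator CREBBP averaged 4.08 ± 0.618 FPKM in the anti-ENG tumours and 5.42 ± 0.808 FPKM in the IgG tumours (SD, n = 3 each), with a log2 fold change of -0.34 and overlapping arms. Its close relative EP300 averaged 9.53 ± 0.600 FPKM in the anti-ENG tumours and 11.1 ± 0.550 FPKM in the IgG tumours (SD, n = 3 each), with a log2 fold change of -0.20, and lay apart.

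Of 39 other glycolysis and pyruvate genes looked up, 37 had a row and 23 were tested, with 12 estimates above 0 and 11 below, a median of 0.070, 2 unadjusted limma p under 0.05 (8.70%) and 3 genes lying apart (13.0%). PDHA1 and PDHB encode subunits of pyruvate dehydrogenase, which feeds pyruvate into the citric acid cycle. PDHA1 had 42.4, 35.2 and 35.9 FPKM in the anti-ENG tumours and 29.7, 28.0 and 33.9 FPKM in the IgG tumours. PDHB had 38.8, 37.8 and 39.2 FPKM in the anti-ENG tumours and 30.8, 36.6 and 31.2 FPKM in the IgG tumours. The arms lay apart for both, with log2 fold changes of 0.30 and 0.23 (limma adjusted p = 0.529 and 0.534), which were 0.18 and 0.11 with the sum of FPKM equalised. SLC2A10, a glucose transporter, and PDK4, a further pyruvate dehydrogenase kinase, were near the minimum level. SLC2A10 had 0.555, 1.34 and 0.710 FPKM in the anti-ENG tumours and 2.43, 3.27 and 1.02 FPKM in the IgG tumours, and PDK4 averaged 1.46 ± 1.69 FPKM in the anti-ENG tumours and 2.09 ± 0.622 FPKM in the IgG tumours (SD, n = 3 each). The arms overlapped, and the log2 fold changes of SLC2A10 and PDK4, -0.75 and -0.52 (limma adjusted p = 0.529 and 0.666), were -1.21 and -1.02 with a pseudocount of 0.1. Of 39 other hypoxia-induced genes with a row, 36 were tested, with 17 estimates above 0 and 19 below, a median of -0.037, 3 unadjusted limma p under 0.05 (8.33%) and 2 genes lying apart (5.56%). VEGFA, the main angiogenic target of HIF, had 97.1, 104 and 145 FPKM in the anti-ENG tumours and 184, 144 and 189 FPKM in the IgG tumours, where anti-ENG 3 just exceeded IgG control 2 (log2 fold change -0.59, SE 0.19, limma adjusted p = 0.529). KDM4B, a histone demethylase, averaged 6.96 ± 1.42 FPKM in the anti-ENG tumours and 9.64 ± 1.09 FPKM in the IgG tumours (SD, n = 3 each) and lay apart, while AK4 and FAM162A, both mitochondrial, had log2 fold changes of 0.35 and 0.29. These were 0.12 for AK4 without IgG control 2 and 0.16 for FAM162A without anti-ENG 1.

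Markers of other cell types were mostly near 0 under their human symbols, and host cells are of the mouse. In bulk tissue fewer cells of a type and less RNA per cell cannot be told apart. Nor can RNA made by the tumour cells be told apart from mouse reads assigned to these human symbols. Of 10 endothelial markers 7 had a mean under 1 FPKM, and the summed list ran from 7.72 to 10.3 FPKM in the anti-ENG tumours and from 6.52 to 10.0 in the IgG tumours. The defining endothelial genes CDH5, KDR and VWF reached no more than 0.151, 0.0535 and 0.0821 FPKM in the anti-ENG tumours and 0.341, 0.0332 and 0.0796 FPKM in the IgG tumours. Of 9 leukocyte markers 6 had a mean under 1 FPKM, CD3E was at 0 in every tumour, and the sum, nearly all of it CD68, ran from 75.6 to 102 FPKM in the anti-ENG tumours and from 63.8 to 122 in the IgG tumours. All 4 erythroid markers had a mean under 1 FPKM, with HBA1, HBA2 and HBB at 0 throughout. Of 6 melanocyte markers only MITF passed 1 FPKM. All 8 fibroblast markers passed it, led by COL3A1, and summed to 199 to 461 FPKM in the anti-ENG tumours and to 382 to 694 in the IgG tumours. Of these 8 markers 7 had an estimate below 0, with a median log2 fold change of -0.80, overlapping arms for every marker and 1 unadjusted limma p under 0.05. Their mean log2 level relative to the 6 tumours was -0.86, -0.27 and -0.090 in anti-ENG 1, 2 and 3 and 0.25, 0.79 and 0.17 in IgG control 1, 2 and 3. It was lowest in anti-ENG 1, where the payoff-phase enzymes were highest. It was highest in IgG control 2, where the payoff-phase enzymes stood at -0.17, close to -0.16 in IgG control 3. Anti-ENG 2 was below 0 both for the fibroblast markers and for the payoff-phase enzymes (-0.087). By summed FPKM the fibroblast markers were highest in IgG control 1, at 694 FPKM against 621 in IgG control 2. The part of these markers in the results was not tested.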

How the data were processed

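RNA of 6 STS26T xenografts was sequenced, 3 per arm. The deposited FPKM were made by the authors with Cuffnorm against the human build GRCh37 (hg19), and the tools named are Cufflinks 2.2.1, FastQC 0.10.1, SAMtools 0.1.1.9, TopHat2 2.0.10 and Bowtie 1.0.0, per the submitters' processing notes. The sources used here give the labels' organism as mouse, describe no removal of mouse reads, and name 2 library kits and 2 sequencers without saying which served which tumour, so a batch cannot be told apart from the arms.

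FPKM were analysed as log2(FPKM + 1) for the 12586 genes averaging 1 FPKM or more, with limma 3.58.1 (trended prior, R 4.3.3), an arm term only and Benjamini-Hochberg adjustment over all of them (threshold 0.05). A fold change on this scale understates changes of low genes. FPKM hold no counts, so no counting intervals are given, and total depth is unknown. Simulated data of the same 12586 genes had 200 planted changes a run and noise drawn independently for each gene and tumour. Of planted log2 changes of 0.5, 1, 2 and 3, 9.6%, 76.0%, 98.0% and 99.6% were recovered. All sizes were planted together in each run, and large changes that pass ease the adjusted threshold for small ones. Runs without the changes of 2 and 3 were not simulated. Differences shared by many genes of a tumour, or by tumours of 1 mouse, were not simulated either, so recovery in the real data may be lower. Isozyme shares are ratios of FPKM sums with an exact permutation test (SciPy 1.17.1, Python 3.11.15).

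The members, the gene lists and the tests were chosen with earlier results of these data known. Values of every tumour are given, in each role, for the 4 tested members of smallest unadjusted p and the 2 of highest mean FPKM and for HIF1A, EPAS1, SLC2A1, CA9, LDHA and PDK1; for further members they were chosen after seeing the values. From each pathway list, text names 2 higher and 2 lower genes, those with the lowest unadjusted p. The division into preparatory and payoff phases, and the count of transport genes under omission of tumours, were added after seeing the data. Other pseudocounts, filters, scalings, priors, weights, a replicate block, averaging of tumours of 1 code number and omission of tumours were tried as alternatives.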

Additional observations from a re-analysis of the deposited data

How the results depend on the processing

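No gene was called over the whole table under any setting (limma, 0 in each), with 662 to 1566 genes at an unadjusted p under 0.05 and smallest adjusted p of 0.26 to 0.83. With the replicate number as a block, 842 genes had an unadjusted p under 0.05, against 1154 without the block, and 0 were called. Same-numbered tumours gave correlations of deviations of -0.33, 0.19 and 0.037, and other pairs ran from -0.49 to 0.35. IgG control 1 correlated better with anti-ENG 3 (0.35) than with anti-ENG 1. Whether same-numbered tumours shared a factor cannot be decided from these values, because the deviations of an arm sum to 0 over its 3 tumours.

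The cause of the following changes was not tested. With quantile normalization the median log2 fold change was -0.042 for glycolytic enzymes (7 above 0) and 0.14 for the payoff phase, 2 preparatory-phase enzymes were above 0, and LDHA was at -0.049. With cyclic loess normalization the same values were -0.060 (6 above 0), 0.072, 1 and -0.092. With the sum of FPKM equalised, which moved the median of all genes to -0.10, 3 other hypoxia targets and 2 preparatory-phase enzymes were above 0 and EGLN1 was at -0.0059. With upper quartile scaling 3 preparatory-phase enzymes were above 0. With array weights VHL, SLC2A1 and SLC16A3 were at 0.0012, 0.024 and 0.069. Without IgG control 1 and anti-ENG 1 together, 11 other hypoxia targets were above 0, and the log2 fold changes were 0.083 for HIF1A, 0.013 for EPAS1, 0.021 for EGLN2, 0.033 for VHL, -0.011 for LDHA, 0.12 for SLC2A1, 0.26 for SLC16A3 and 0.082 for CA12.

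With each tumour left out in turn, the median of the glycolytic enzymes ran from 0.056 to 0.28, other hypoxia targets above 0 from 3 to 13 and preparatory-phase enzymes above 0 from 2 to 5. The log2 fold changes ran from -0.31 to 0.048 for HIF1A, -0.017 to 0.29 for EGLN1, -0.18 to 0.00046 for EGLN2, -0.14 to 0.00051 for VHL, -0.041 to 0.32 for LDHA, -0.47 to 0.12 for SLC2A1, -0.43 to 0.050 for SLC16A3, -0.34 to 0.012 for PFKFB4, -0.30 to 0.15 for PDK1 and -0.35 to 0.10 for NDRG1. The differences of shares ran from -1.86 to 0.41 percentage points for PFKM and -0.49 to 0.63 for ALDOC. The HK2, ENO2 and LDHA shares kept their direction under all 7 omissions, but shares were not recomputed with quantile or cyclic loess normalization. The log2 fold changes of GAPDH, PGK1, PGAM1, ENO1, LDHB, SLC2A3, EGLN3, CA9, BNIP3 and KDM3A kept their direction under all 19 settings. Their sizes did not stay alike, and ranged from 0.030 to 0.51 for GAPDH, 0.11 to 0.51 for PGK1, 0.13 to 0.42 for PGAM1, 0.12 to 0.55 for ENO1, 0.16 to 0.56 for LDHB, -0.63 to -0.33 for SLC2A3, 0.27 to 0.64 for EGLN3, 0.097 to 0.41 for CA9, 0.11 to 0.82 for BNIP3 and -0.31 to -0.12 for KDM3A.

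In simulations with 3 tumours an arm and independent noise, log2 changes of 0.5 were called in 9.6% of cases and of 1 in 76.0%. Changes of 2 and 3 were planted in the same runs, and recovery without them was not simulated. The members' estimates lay between -0.58 and 0.44. FPKM without counts give no measure of sampling error for low genes such as ARNT2.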
